A study of Homo sapiens with 18 samples.

Results

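Of the 28395 genes listed in each of the 2 RNA-seq tables of K562 cells, 9 encode the proteins by which megakaryocytes and platelets are usually recognised: ITGA2B, ITGB3, GP1BA, GP1BB, GP9, PF4, PPBP, THBS1 and VWF. They were taken by symbol, and 30 of the 85549 accessible chromatin regions found by ATAC-seq lay within 5 kb of one of them. K562 is a chronic myelogenous leukemia line with erythroid and megakaryocytic potential. The study compared V-K562 cells, the control line, with B-K562 cells expressing wild type BASP1 and with G-K562 cells expressing BASP1-G2A. The G2A form cannot be N-myristoylated. BASP1 is a transcriptional corepressor, and the comparisons ask how gene expression and chromatin accessibility depend on BASP1 and on its lipid group. Each line was a stably transfected pool kept under G-418, so a difference between the pools and an effect of the BASP1 form cannot be told apart. There were 3 biological replicate libraries per line for each assay.

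Megakaryocytes are bone marrow cells that shed platelets, and they share a progenitor with red cells. The platelet surface carries an integrin made of the ITGA2B (alpha-IIb, CD41) and ITGB3 (beta-3, CD61) chains, which binds fibrinogen, and a receptor for von Willebrand factor made of GP1BA, GP1BB and GP9 with GP5. PF4 and PPBP are chemokines stored in alpha granules, and THBS1 (thrombospondin) and VWF (von Willebrand factor) are adhesive glycoproteins stored beside them. GATA1 and TAL1 act in both erythroid and megakaryocytic cells. THBS1 and VWF are also made by other cells, VWF above all by endothelium and THBS1 by fibroblasts among others.

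An accessible region at the ITGA2B promoter had a peak in all V-K562 and B-K562 libraries and in no G-K562 library. Its reference sequence is shown for that reason, with the promoter of GP1BB, which held the highest peak of the 9 genes, and the promoter of THBS1, which held the only match to a WT1/EGR1-like core among the 5 promoters at hand. The region window is 300 bases around the median summit and the promoters are the 250 bases before the RefSeq start, all from GRCh38, written 5′ to 3′ along the gene. Capitals mark matches on either strand to a GATA core (GATAA), an ETS core (AGGAAG), a RUNX core (TGTGGT) or a WT1/EGR1-like core (GCGNGGGNG), none of which overlapped in these sequences.
ITGA2B region 2, chr17:44389771-44390070, minus strand: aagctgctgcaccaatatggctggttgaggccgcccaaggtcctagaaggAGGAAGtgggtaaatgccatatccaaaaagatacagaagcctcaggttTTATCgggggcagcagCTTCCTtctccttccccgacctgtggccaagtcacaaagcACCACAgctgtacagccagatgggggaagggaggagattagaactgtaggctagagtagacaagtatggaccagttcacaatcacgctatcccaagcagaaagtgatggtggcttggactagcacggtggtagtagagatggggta
GP1BB promoter, chr22:19723289-19723538, plus strand: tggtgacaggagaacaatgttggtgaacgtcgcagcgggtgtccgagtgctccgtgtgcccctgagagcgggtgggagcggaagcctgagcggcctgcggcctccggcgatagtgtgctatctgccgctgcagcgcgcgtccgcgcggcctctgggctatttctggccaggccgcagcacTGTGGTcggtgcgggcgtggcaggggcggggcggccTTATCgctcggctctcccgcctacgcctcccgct
THBS1 promoter, chr15:39580829-39581078, plus strand: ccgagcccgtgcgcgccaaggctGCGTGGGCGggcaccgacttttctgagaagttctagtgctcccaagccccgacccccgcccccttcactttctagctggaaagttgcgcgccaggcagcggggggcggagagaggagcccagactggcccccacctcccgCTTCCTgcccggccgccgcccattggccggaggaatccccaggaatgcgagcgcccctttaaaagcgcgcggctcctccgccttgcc

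The ITGA2B window covers bases 421 to 122 before the RefSeq start and holds 1 GATA core, 2 ETS cores and 1 RUNX core. Over all 85549 regions, 39.5% of such windows held a GATA core, 37.9% an ETS core, 21.9% a RUNX core and 8.72% a WT1/EGR1-like core. Among the 30 windows at the 9 genes these numbers were 13, 11, 5 and 4. RefSeq promoter windows, 250 bases before to 50 after the start, were at hand for 5 of the 9 genes (ITGA2B, GP1BB, GP9, PPBP and THBS1). A GATA core was found in 3 of them (22.7% of 35116 promoters), an ETS core in 4 (33.6%), a RUNX core in 3 (13.1%) and a WT1/EGR1-like core in 1 (18.8%). A match is a description of the letters and not a bound site.

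BASP1, the transgene, read 7, 5 and 7 normalized read counts in V-K562, from 6294 to 6965 in B-K562 and from 8124 to 12538 in G-K562, which fits the labels. The normalized read count is a read count divided by the library's size factor. It summed to between 32074895 and 33229588 per library, so it no longer shows each library's depth. Levels below are on the scale of the table that holds V-K562 and G-K562, to which B-K562 values were brought by a factor of 1.02. The tests of B-K562 against V-K562 used the values of their own table. HBG2, a fetal globin, read from 35315 to 41997 in V-K562 and from 5347 to 5597 in G-K562, and the lowest GATA1 and TAL1 values of any library were 5347 and 3886. Of 20 erythroid markers 19 had a mean of at least 10 in each line, and HBB was the exception. Their summed level ran from 142919 to 161604 in V-K562, from 259244 to 263145 in B-K562 and from 79684 to 88112 in G-K562. In bulk libraries such as these, fewer cells of a type and less RNA per cell cannot be told apart.

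Per kilobase of exon, ITGA2B stood far above the other 8 genes in each line. In V-K562 it averaged 1324 ± 55.7 normalized counts per kb (SD, n = 3), which was rank 1696 of 28395 genes. ITGB3 at 67.7 ± 11.3 and THBS1 at 60.7 ± 6.22 followed, and these neighbours overlapped between libraries. PPBP, at 11.0 ± 5.21, came next. GP9 (1.83), VWF (0.566), PF4 (0.322) and GP1BA (0.264) were close to 0, and GP1BB was listed at 0. In B-K562 the order changed, with ITGA2B at 535 ± 45.7, THBS1 at 93.4 ± 9.15 and ITGB3 at 46.2 ± 2.44 per kb, and THBS1 and ITGB3 did not overlap. In G-K562 ITGA2B was at 257 ± 56.6, ITGB3 at 68.7 ± 6.41 and THBS1 at 57.2 ± 5.15 per kb. The megakaryocyte label thus rests on ITGA2B, ITGB3 and, less specifically, THBS1, while GP1BA, GP9 and PF4 were at or near 0 in all 9 libraries. The listed 0 of GP1BB does not show a lack of expression, since its exons are shared with another gene.

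**Figure D1:**
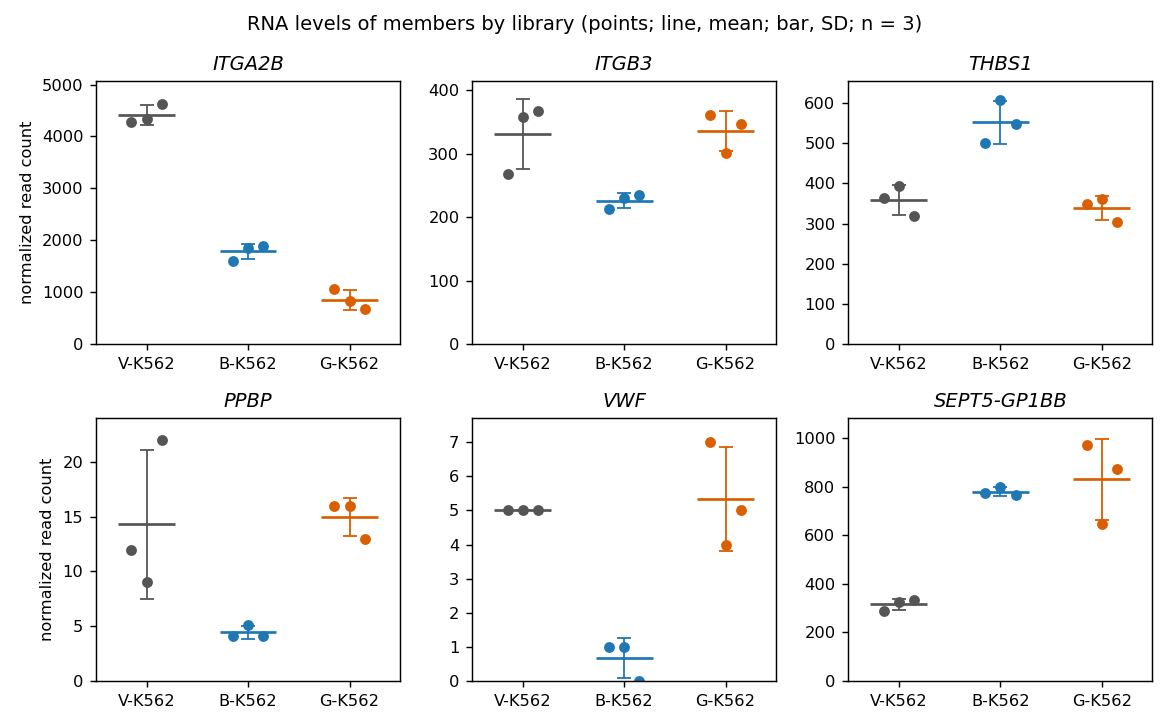
Normalized read counts (vertical axes, each from 0) of 5 of the 9 genes and of the read-through gene SEPT5-GP1BB in the 3 RNA-seq libraries of each line, with points for libraries, lines for means and bars for SD. ITGA2B steps down from V-K562 to B-K562 to G-K562 without overlap, whereas ITGB3 and PPBP are low and THBS1 is high in B-K562 and sit at the V-K562 level in G-K562.

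ITGA2B was lower in both BASP1 lines than in V-K562, and lower again in G-K562 than in B-K562. ITGA2B lies at chr17:44372181-44389505 on the minus strand. It read 4281, 4339 and 4628 in V-K562, 1610, 1859 and 1887 in B-K562, and 1057, 832 and 682 in G-K562. No library of one line reached the range of another. B-K562 was 2.48-fold lower than V-K562 (log2 fold change -1.31, SE 0.06, adjusted p = 4.9e-10), by limma on log2(value + 1) with Benjamini-Hochberg adjustment over all genes tested, as are all RNA values below. G-K562 was 5.23-fold lower than V-K562 (-2.39, SE 0.12, adjusted p = 2.3e-08) and 2.11-fold lower than B-K562 (-1.08, SE 0.12, adjusted p = 9e-07). Without G-K562 replicate 3 the last value was -0.92, still past the adjusted p threshold but short of a 2-fold change.

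ITGB3, the partner chain, was lower in B-K562 alone. It lies at chr17:47253842-47312711 on the plus strand and read 268, 358 and 368 in V-K562, 213, 231 and 235 in B-K562, and 361, 301 and 347 in G-K562. B-K562 was below every other library, and V-K562 and G-K562 overlapped. The log2 fold change was -0.54 (SE 0.12, adjusted p = 0.00079) in B-K562 against V-K562, 0.57 (SE 0.12, adjusted p = 0.00053) in G-K562 against B-K562, and 0.03 (SE 0.13, adjusted p = 0.84) in G-K562 against V-K562. The 2 chains of the integrin thus did not follow one another across the lines. V-K562 replicate 1, the lowest V-K562 library for ITGB3, stood apart in the myeloid genes MPO (77 against 2 and 1) and S100A9 (59 against 12 and 7), and without it the last value was -0.11 (adjusted p = 0.38). The comparisons of B-K562 and G-K562 with V-K562 share the same 3 V-K562 libraries.

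THBS1 was higher in B-K562. It lies at chr15:39581079-39597467 on the plus strand and read 364, 393 and 320 in V-K562, 500, 608 and 547 in B-K562, and 349, 362 and 304 in G-K562. Each B-K562 library was above all others, and V-K562 and G-K562 overlapped. The log2 fold change was 0.62 (SE 0.09, adjusted p = 4e-05) in B-K562 against V-K562, -0.70 (SE 0.10, adjusted p = 1.6e-05) in G-K562 against B-K562, and -0.08 (SE 0.11, adjusted p = 0.5) in G-K562 against V-K562. One B-K562 library, replicate 1, stood apart in fibroblast markers, with COL3A1 at 585 against 4.1 and 2.0 in the others and LUM at 62.0 against 1.0 and 3.1. THBS1 was lowest in that library among B-K562, and without it the log2 fold change against V-K562 was 0.69 (SE 0.10, adjusted p = 8.9e-05).

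PPBP and VWF had the pattern of ITGB3 at much lower levels. PPBP, at chr4:73986439-73988190, read 12, 9 and 22 in V-K562, 4.1, 5.1 and 4.1 in B-K562, and 16, 16 and 13 in G-K562. B-K562 was below the other lines in every library. PPBP passed the filter of at least 10 in 3 libraries only where G-K562 took part, and in G-K562 against B-K562 it passed through the V-K562 and G-K562 libraries. It was thus admitted through the lines in which it is high, so its log2 difference of 1.56 from B-K562 is given as a description with no test. G-K562 against V-K562 gave 0.15 (SE 0.34, adjusted p = 0.72). VWF, at chr12:5948874-6124670, read 5 in each V-K562 library, 1, 1 and 0 in B-K562, and 7, 4 and 5 in G-K562, and was below the filter. With no filter on low values, the log2 difference of B-K562 from V-K562 was -1.42 for PPBP and -1.83 for VWF. That of G-K562 from B-K562 was 1.96 for VWF. These differences rest on few reads per library and are given as descriptions with no test. Of 10 endothelial markers, PECAM1, TIE1 and FLT1 had a mean of at least 10 in each line. TEK had such a mean in V-K562 and B-K562 alone, and ERG in G-K562 alone. The summed level of all 10 ran from 648 to 724 in V-K562, from 396 to 458 in B-K562 and from 623 to 734 in G-K562. EMCN was at 0 in all 9 libraries, and CDH5 and CLDN5 did not exceed 1. Whether they bear on VWF was not tested.

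The 3 chains of the von Willebrand factor receptor and PF4 could not be compared. GP9 (chr3:129055449-129062411) read 2, 5 and 0 in V-K562 and 0 in the 6 other libraries, GP1BA (chr17:4932275-4935030) did not exceed 2 in any library, and PF4 (chr4:73980825-73982124) did not exceed 4. GP1BB (chr22:19723543-19724774) was listed at 0 in all 9 libraries. All 958 of its exon bases also belong to SEPT5-GP1BB, a read-through transcript of SEPTIN5 and GP1BB on the same strand, so a read from these bases fits both genes. SEPT5-GP1BB read 290, 325 and 332 in V-K562, 776, 800 and 767 in B-K562, and 972, 647 and 875 in G-K562. Both BASP1 lines were above V-K562 in every library, with log2 fold changes of 1.31 (SE 0.07, adjusted p = 2.2e-09) in B-K562 and 1.38 (SE 0.13, adjusted p = 3e-06) in G-K562. SEPTIN5, counted apart, read 64, 54 and 72 in V-K562 and 51.9, 59.0 and 57.0 in B-K562, a log2 difference of -0.17 (SE 0.16, adjusted p = 0.36). In G-K562 it read 97, 75 and 75, a difference of 0.37 (SE 0.17, adjusted p = 0.074) from V-K562 and 0.54 (SE 0.16, adjusted p = 0.0073) from B-K562. With GP1BB at 0 in all 9 libraries, no read of the shared bases was credited to it. Whether such reads were counted for the read-through gene, left out or absent was not tested. Nor was the sharing of exon bases between SEPTIN5 and the read-through gene, so these values do not separate SEPTIN5 from it.

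In all, 3 of the 9 genes could be tested in B-K562 against V-K562, where ITGA2B and ITGB3 were lower and THBS1 higher at an adjusted p of at most 0.05. Of 14958 genes tested there, 75.8% passed that threshold, 37.2% lower and 38.6% higher, and 20.6% passed with at least a 2-fold change, 14.1% lower, as ITGA2B was, and 6.46% higher. In G-K562 against V-K562, ITGA2B alone of 4 tested passed, at 2-fold, beside 66.9% of genes (33.3% lower and 33.5% higher), or 19.1% at 2-fold (10.3% and 8.81%). In G-K562 against B-K562, ITGA2B and THBS1 were lower and ITGB3 higher, beside 78.5% of genes past the threshold (40.5% lower and 38.1% higher), and ITGA2B passed 2-fold, beside 29.9% of genes (12.5% lower and 17.4% higher). PPBP also passed there, but it was admitted by the filter through the lines where it is high and supports nothing. With so large a share of all genes changed, these counts do not set the 9 genes apart. The median log2 fold change of all tested genes was 0.01, 0.00 and -0.02 in the 3 comparisons.

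At ITGA2B, 5 accessible regions were found, and the one over the promoter was called as a peak in V-K562 and B-K562 but not in G-K562. Its height is given as the highest summit pileup, the number of tags stacked at the top of a peak called in that library. Region 2, chr17:44389657-44390156, is centred at -402 bp from the gene start. It read 114, 124 and 91 tags in V-K562, 154, 148 and 126 in B-K562, and had no peak in any G-K562 library. With absent peaks set to 17 tags, the 5th percentile of all peaks, the log2 difference of G-K562 was -2.78 from V-K562 and -3.01 from B-K562. These are descriptions with no test, since the region was admitted through the lines that have the peak and the G-K562 values are all that setting. B-K562 against V-K562 gave 0.23 (SE 0.13, adjusted p = 0.23), so the lower ITGA2B RNA of B-K562 came with no detected loss of this peak. Of 32198 regions with a peak in all V-K562 and B-K562 libraries, 2659 (8.26%) had none in G-K562, and of 10571 such regions within 1 kb of a gene start 120 (1.14%) did.

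**Figure D2:**
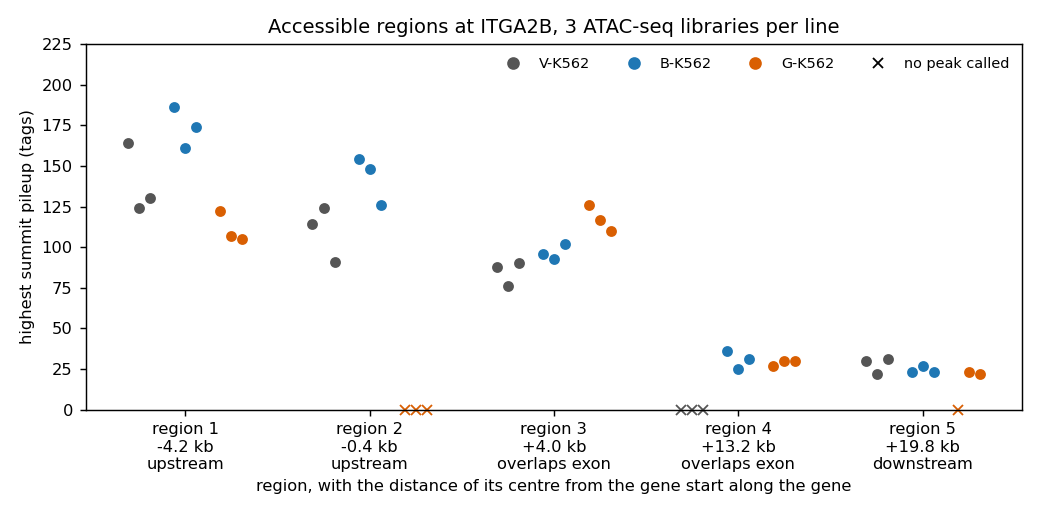
Highest summit pileup in tags (vertical axis) of the 5 accessible regions at ITGA2B in the 3 ATAC-seq libraries of each line, ordered along the gene, with crosses at 0 for libraries without a peak. Region 2, centred at -402 bp from the gene start, has peaks of 91 to 154 tags in V-K562 and B-K562 and none in G-K562.

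The other 4 regions at ITGA2B changed less. Region 1, centred at -4154 bp, read 164, 124 and 130 in V-K562, 186, 161 and 174 in B-K562, and 122, 107 and 105 in G-K562. It was lower in G-K562 than V-K562 (-0.66, SE 0.14, adjusted p = 0.008) and than in B-K562 (-0.85, SE 0.13, adjusted p = 0.00083). The first of these was -0.31 (adjusted p = 0.088) with no scaling between libraries. Region 4, over an exon 13240 bp into the gene, had no peak in V-K562 but 36, 25 and 31 tags in B-K562 and 27, 30 and 30 in G-K562, which is given with no test since V-K562 would hold the 17-tag setting alone. Region 3 read from 76 to 90 tags in V-K562, from 93 to 102 in B-K562 and from 110 to 126 in G-K562, with no call after scaling (0.13, adjusted p = 0.42, in G-K562 against V-K562). Region 5, downstream of the gene, read 30, 22 and 31 tags in V-K562 and 23, 27 and 23 in B-K562. In G-K562 it had no peak in replicate 1, and 23 and 22 tags in the others. With the absent peak set to 17 tags, the log2 difference of G-K562 from V-K562 was -0.67, or -0.40 with no scaling. It is given with no test, and its call was lost under 6 of 10 alternatives.

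GP1BB had the highest peak of the 9 genes, over its start. Region 3, chr22:19723096-19723772, read 299, 377 and 341 tags in V-K562, 519, 553 and 553 in B-K562, and 414, 422 and 394 in G-K562. The deposited tags of the lines did not overlap. After scaling it was higher in B-K562 than in V-K562 (0.53, SE 0.09, adjusted p = 0.0059) and lower in G-K562 than B-K562 (-0.61, SE 0.08, adjusted p = 0.00053), whereas G-K562 against V-K562 gave -0.06 (SE 0.09, adjusted p = 0.6). Region 4, centred 586 bp into the gene, read 135, 110 and 95 tags in V-K562, had no peak in B-K562, and had none, 106 and 91 in G-K562. With absent peaks set to 17 tags the log2 difference of B-K562 from V-K562 was -2.73, given with no test for the same reason as at ITGA2B. Regions 1 and 2, upstream, were not called in any comparison. All exon bases of GP1BB lie in SEPT5-GP1BB, and which transcript these peaks belong to was not tested.

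GP9 and GP1BA, whose RNA was at or near 0, had accessible regions that differed in G-K562. GP9 region 1 read 90, 79 and 64 tags in V-K562, 82, 73 and 79 in B-K562, and 64, 43 and 45 in G-K562. It was lower in G-K562 than V-K562 (-0.95, SE 0.21, adjusted p = 0.0082) and than in B-K562 (-0.84, SE 0.18, adjusted p = 0.0068). It is centred at -622 bp from the gene start given in the tables, but the RefSeq start of GP9 is 5330 bp farther on. GP9 region 2 had peaks in 2 B-K562 libraries alone and was not tested. GP1BA region 1, chr17:4934171-4934662, lies over an exon and read 21, 21 and 27 tags in V-K562, 25, 29 and 22 in B-K562, and 63, 46 and 61 in G-K562. G-K562 was above the other lines in every library (0.93, SE 0.20, adjusted p = 0.008 against V-K562, and 0.92, SE 0.20, adjusted p = 0.0074 against B-K562). GP1BA region 2, downstream of the gene, was not called.

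**Figure D3:**
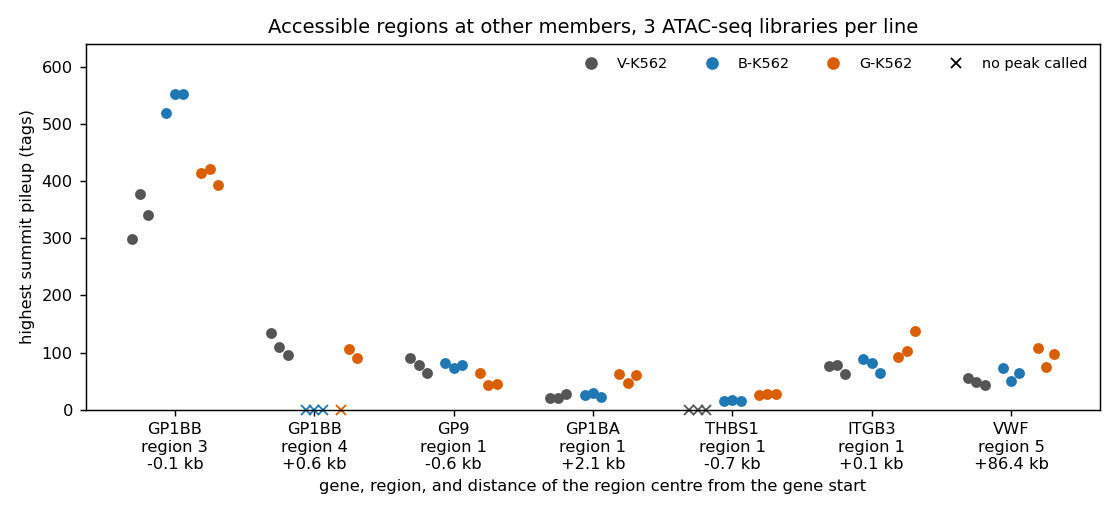
Highest summit pileup in tags (vertical axis) of 7 accessible regions at 6 other genes in the 3 ATAC-seq libraries of each line, with the distance of each centre from the gene start and crosses at 0 for libraries without a peak. GP1BB region 3 is highest in B-K562 at 519 to 553 tags, GP9 region 1 is lowest in G-K562 at 43 to 64, and GP1BA region 1 is highest in G-K562 at 46 to 63.

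ITGB3 had 9 regions and none over its start that was called. Region 1, at the start, read 76, 78 and 63 tags in V-K562, 88, 82 and 65 in B-K562, and 92, 102 and 138 in G-K562, with log2 fold changes of -0.04 (adjusted p = 0.87) in B-K562 and 0.25 (adjusted p = 0.27) in G-K562 against V-K562. So the lower ITGB3 RNA of B-K562 came with no detected change of the promoter peak. Inside the gene, intronic region 3 read from 143 to 150 tags in V-K562, from 109 to 136 in B-K562 and from 112 to 149 in G-K562, and after scaling was lower in both (-0.40, adjusted p = 0.021, and -0.51, adjusted p = 0.0074). With no scaling both calls were lost (-0.26, adjusted p = 0.1, and -0.16, adjusted p = 0.29), and the first was lost under 5 of 11 alternatives in all. Region 5 had no peak in B-K562 and 28, 67 and 48 tags in G-K562, and region 8 had 49, 46 and 37 tags in B-K562 and none in G-K562, which is given with no test. The remaining calls at ITGB3 were not stable. Region 7 was lower in G-K562 than V-K562 (-0.42, adjusted p = 0.031), a call lost under 6 of 11 alternatives. Region 9 read 27, 20 and 24 tags in V-K562, and 20, no peak and 21 in G-K562. Its log2 difference of -0.56 uses the 17-tag setting and is given with no test. The region 9 call was lost under 5 of 10 alternatives. Between G-K562 and B-K562, region 2 gave 0.58 (adjusted p = 0.028), lost under 5 of 14. Region 4 read 31, 27 and 28 tags in B-K562 and had a peak, of 23 tags, in 1 G-K562 library. Its difference of -0.66 is given with no test for the same reason, and its call was lost under 8 of 13. Region 6 had a peak in 1 library and was not tested.

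THBS1 had 1 region and VWF had 7, while none lay within 5 kb of PF4 or PPBP. THBS1 region 1, chr15:39580226-39580572, is centred at -680 bp from the start. It had no peak in V-K562, 16, 17 and 16 tags in B-K562, and 25, 28 and 27 in G-K562. The B-K562 values lie at the floor of 17 tags and V-K562 has no peak, so in G-K562 against V-K562 the region was admitted through G-K562 alone, and no test is given. THBS1 RNA was highest in B-K562, not in G-K562. Of 1727 regions within 1 kb of a gene start with no peak in V-K562, 58 (3.36%) had a peak in all B-K562 and G-K562 libraries, as this one did. All 7 VWF regions were intronic. Region 5 read 56, 49 and 44 tags in V-K562, 73, 50 and 64 in B-K562, and 108, 75 and 97 in G-K562 (0.55, SE 0.17, adjusted p = 0.036 in G-K562 against V-K562, lost under 4 of 11 alternatives). Region 3 had no peak, 14 and 18 tags in B-K562, and 28, 25 and 26 in G-K562. Region 6 read 27, 25 and 23 tags in B-K562, and 20, 19 and 23 in G-K562. The B-K562 values of region 3 and the G-K562 values of region 6 lie near the 17-tag floor. Their log2 differences of G-K562 from B-K562, 0.38 and -0.47, are therefore given with no test. Their calls were lost under 9 of 13 and 2 of 13 alternatives. Regions 1, 2 and 7 had a peak in 1 library each.

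Of the 30 regions, 25 were tested in at least 1 comparison. In B-K562 against V-K562, 4 of 23 passed an adjusted p of 0.05, 2 lower and 2 higher, beside 25.2% of all regions tested (16.5% lower and 8.69% higher). One, GP1BB region 4, was at least 2-fold lower and 0 were higher, beside 7.65% of regions at 2-fold (6.12% and 1.53%). In G-K562 against V-K562, 11 of 23 passed, 7 lower and 4 higher, beside 42.0% (25.8% and 16.2%), and 1, ITGA2B region 2, at 2-fold beside 16.0% (13.0% and 2.92%). In G-K562 against B-K562, 12 of 25 passed, 7 lower and 5 higher, beside 27.9% (15.5% and 12.4%), and 3 at 2-fold, ITGA2B region 2 and ITGB3 region 8 lower and ITGB3 region 5 higher, beside 12.9% (8.56% and 4.32%). Of these calls 2, 3 and 3 in the 3 comparisons, and each call at 2-fold, were of regions with no peak in any library of 1 of the lines compared, which the choice of regions favours. The counts therefore support nothing about the 9 genes. Scaling mattered to these values, since with none the median of all regions was higher by 0.12, 0.28 and 0.12 on the log2 scale in the 3 comparisons. The median log2 fold change of the tested regions was 0.05, 0.00 and -0.15, beside -0.06, -0.09 and 0.00 over all regions.

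Genes whose RNA followed these patterns most closely were sought among 11385 genes with a mean of at least 100, by Pearson correlation of log2(value + 1) over the 9 libraries, which fall into 3 lines. They were PPM1J and MAST1 for ITGA2B (both r = 0.995), KDM5B (0.991) and CBX5 (0.979) for ITGB3, HHLA3 (0.977) and ANKRD9 (0.976) for PPBP, and HARS (0.981) and ERAL1 (0.980) for THBS1. KDM5B, a histone H3K4 demethylase, averaged 6480 in V-K562, 4844 in B-K562 and 6359 in G-K562, and CBX5, the heterochromatin protein HP1-alpha, 8263, 5314 and 9051. PPBP read from 4.1 to 22 per library, so its likeness rests on few reads. With 3 lines behind the 9 libraries, high correlations are easily reached among 11385 genes. The likeness only describes these libraries.

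Other genes of the megakaryocyte and platelet programme were taken from 5 lists. Where B-K562 and V-K562 are compared, their means here are those of their own table, before that factor. The lists were chosen with earlier results of these data known, so counts of calls in them are descriptions. The counts also include genes that the filter admitted through the lines where they are high. Of 24 cargo genes tested in B-K562 against V-K562, 19 were lower and none higher, beside 37.2% and 38.6% of all genes, with a median log2 fold change of -0.90. SERPINE2, a serine protease inhibitor, averaged 19.0 in B-K562 and 439 in V-K562 (-4.47, SE 0.16). The growth factors IGF1 (76.0 and 253, -1.75) and EGF (269 and 879, -1.71) were also lower. In G-K562 against B-K562, 18 of 25 were higher and 5 lower, beside 38.1% and 40.5% of all genes, with a median of 1.73. IGF1 reached 4370 in G-K562 (5.83, SE 0.13) and fibronectin FN1 13654 against 981 (3.79). SPARC, a matrix protein, was at 298 in G-K562 and 2576 in B-K562 (-3.11), and TIMP3, a metalloproteinase inhibitor, at 14.7 and 277 (-4.19). Against V-K562, 11 of 24 were higher and 8 lower in G-K562, beside 33.5% and 33.3% of all genes, with a median of 0.19. Many of these proteins are also made by other cells.

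Among 20 other platelet surface receptors tested in B-K562 against V-K562, 9 were lower and 5 higher (median -0.10), beside 37.2% and 38.6% of all genes. The ADP receptor P2RY1 averaged 157 in B-K562 and 1027 in V-K562 (-2.71, SE 0.08), and the ATP-gated channel P2RX1 453 and 1863 (-2.04). The adhesion receptor CD226 was at 63.3 and 235 (-1.87). GP6, the collagen receptor, was higher (542 and 218, 1.32). In G-K562 against V-K562, 10 of 22 were higher and 7 lower (median 0.20), beside 33.5% and 33.3% of all genes, with GP6 at 903 (2.03), the thromboxane receptor TBXA2R at 1196 against 286 (2.04) and P2RX1 at 5348 against 1895 (1.49), while CD226 was lower (-2.97). In G-K562 against B-K562, 14 of 22 were higher and 5 lower (median 0.52), beside 38.1% and 40.5% of all genes, led by P2RX1 (3.52), TBXA2R (2.09) and P2RY1 (1.79), and CD226 was lower (-1.10). GP5, SELP, CLEC1B and TREML1, platelet receptors chosen after their values were seen, had means under 6 in each line.

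In granule biogenesis and secretion, 12 of 27 genes were lower and 7 higher in B-K562 against V-K562 (median -0.12), 11 lower and 15 higher in G-K562 against V-K562 (0.26), and 7 lower and 14 higher in G-K562 against B-K562 (0.23). The shares of all genes lower and higher were 37.2% and 38.6% in the first of these comparisons, 33.3% and 33.5% in the second and 40.5% and 38.1% in the third. SLC18A2, which loads monoamines into dense granules, averaged 378 in B-K562 against 34.0 in V-K562 (3.44, SE 0.14). In G-K562 it averaged 3.33 and read 4, 4 and 2, below the filter value, so it was admitted through the other lines. Its log2 difference of -6.51 in G-K562 from B-K562 is given as a description with no test. RAB27B, a GTPase of dense granule secretion, was at 455 in G-K562 against 1081 in V-K562 (-1.28). The syntaxin STX11 was at 311 against 28.7 (3.43) and RAB32 at 1785 against 857 (1.06). Against B-K562, RAB32 (1.70) and HPS3 (1.34) were higher and RAB27B was lower (-1.12). STX11 read 7.1, 4.1 and 8.1 in B-K562, below the filter value, and was admitted through the other lines. Its log2 difference of 5.43 in G-K562 from B-K562 is likewise given with no test. SLC18A2 and STX11 are in the counts of G-K562 against B-K562, and their part in them supports nothing.

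In the cytoskeleton and integrin activation list, 19 of 35 genes were lower and 5 higher in B-K562 against V-K562 (median -0.24), 13 lower and 15 higher in G-K562 against V-K562 (0.10), and 10 lower and 20 higher in G-K562 against B-K562 (0.39). Beside these stand 37.2% lower and 38.6% higher over all genes in the first comparison, 33.3% and 33.5% in the second, and 40.5% and 38.1% in the third. TUBB1, the beta-tubulin of platelets, averaged 1406 in B-K562, 641 in V-K562 on that table's scale and 233 in G-K562 (1.15 in B-K562 and -1.48 in G-K562 against V-K562). The myosin light chain MYL9 (88.0 and 318, -1.84), tropomyosin TPM4 (3587 and 11792, -1.72) and gelsolin GSN (843 and 2524, -1.58) were lower in B-K562. The kinase SYK was at 82.7 in G-K562 against 1585 in V-K562 (-4.26) and WASF1 at 217 against 485 (-1.17), and thromboxane synthase TBXAS1 was at 523 against 103 (2.33). Against B-K562 in G-K562, SYK (-3.97), TUBB1 (-2.63) and WASF1 (217 and 862) were lower, and TBXAS1 (2.36), TPM4 (2.03) and GSN (1.67) higher.

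Of the transcription factors of megakaryocytes, 13 of 20 tested were higher and 3 lower in B-K562 against V-K562 (median 0.28), 8 higher and 9 lower of 21 in G-K562 against V-K562 (-0.09), and 8 higher and 11 lower in G-K562 against B-K562 (-0.21). Over all genes 38.6% were higher and 37.2% lower in the first comparison, 33.5% and 33.3% in the second, and 38.1% and 40.5% in the third. ETS1 was lower in both BASP1 lines, at 115 in B-K562 against 874 (-2.91, SE 0.10) and 183 in G-K562 against 889 (-2.31, SE 0.18). ZFPM1, the GATA1 cofactor FOG1, averaged 2623 in B-K562 against 1045 (1.33), and MECOM 1306 against 598 (1.13). GFI1B, a repressor needed for megakaryocytes and red cells, was at 979 in G-K562 against 3849 in V-K562 (-1.98), and LMO2 at 758 against 1808 (-1.26). GFI1B (-1.84), LMO2 (-1.66) and MECOM (-1.59) were also lower in G-K562 than B-K562. FLI1, which drives megakaryocyte genes and was chosen after its values were seen, had a mean of 6.44 or less in each line.

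**Figure D4:**
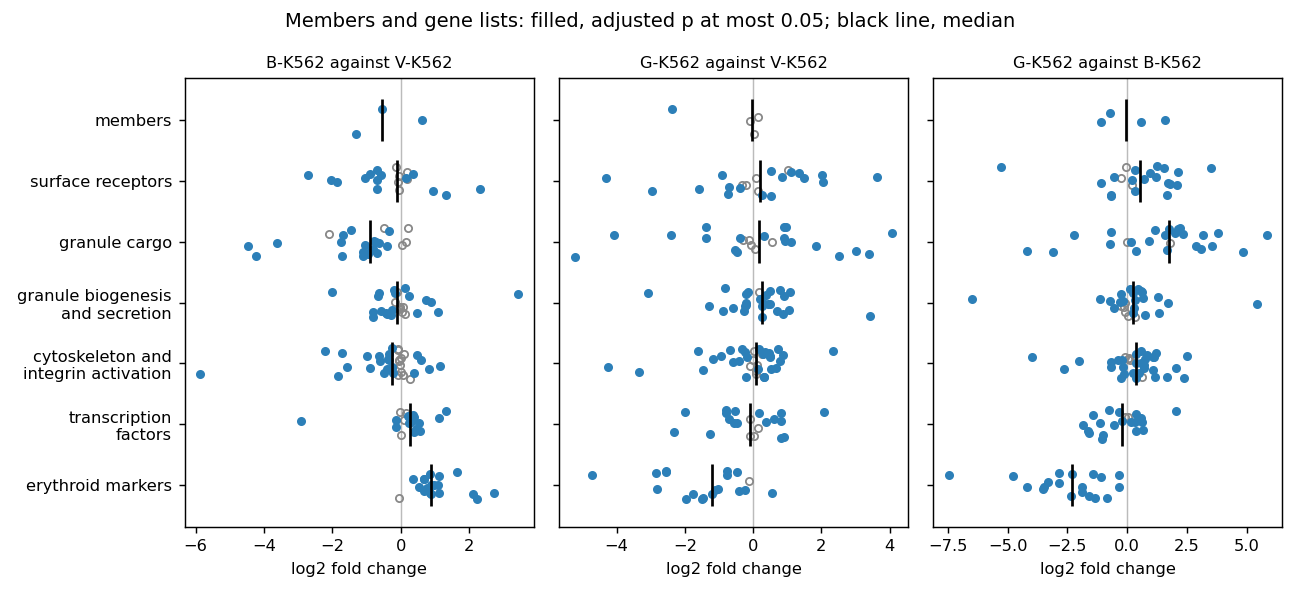
Log2 fold changes (horizontal axes) of the tested genes of each list in the 3 comparisons, with filled points for an adjusted p of at most 0.05, open points for the rest and black lines for the median of each list. Granule cargo lies to the left in B-K562 against V-K562 (median -0.90) and to the right in G-K562 against B-K562 (1.73), and erythroid markers lie the opposite way (0.88 and -2.32).

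Markers of other cell types moved with the lines as well. Of 19 erythroid markers tested, 18 were higher in B-K562 than in V-K562 and none lower (median 0.88), 17 were lower in G-K562 than V-K562 and 1 higher (-1.20), and all 19 were lower in G-K562 than B-K562 (-2.32), beside the shares of all genes just given. CA1, HBZ and HBA2 rose most in B-K562 (2.74, 2.22 and 2.12), and CA1, HBG1 and HBG2 fell most in G-K562 against V-K562 (-4.72, -2.85 and -2.81). Against B-K562 in G-K562, CA1 (-7.46), HBZ (-4.77) and EPB42 (-4.20) led. ITGA2B, lower in both lines, thus went against the direction of the erythroid list in B-K562 and along with it in G-K562. Of 15 granulocyte and monocyte markers, 9, 6 and 9 had a mean of at least 10 in the V-K562, B-K562 and then the G-K562 line, with sums from 4984 to 5324, from 2648 to 2870 and from 7133 to 7795, and CTSG and FCN1 were at 0 throughout. Of 7 tested in B-K562 against V-K562, 4 were lower (CSF3R -2.39, AZU1 -1.83 and CD68 -1.44 among them) and 2 higher (ITGAM 1.01 and CD14 0.64). Of 8 in G-K562 against V-K562, 2 were lower and 2 higher (CSF3R -1.09, ITGAM 2.67 and LYZ 1.55). Of 8 in G-K562 against B-K562, 7 were higher (AZU1 1.67, ITGAM 1.67 and LYZ 1.55 among them). PRTN3, among the 4 lower and the 7 higher, read only 10, 5 and 4 in B-K562. S100A9, also among the 7, was below 10 in each B-K562 library. The granulocyte and monocyte counts stand beside the same shares of all genes as the erythroid ones. The part of these cell type markers in the values of the platelet genes was not tested.

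Lymphoid, endothelial and fibroblast markers are given by their sums and counts. Beside these counts, 37.2% of all genes were lower and 38.6% higher in B-K562 against V-K562. The shares were 33.3% and 33.5% in G-K562 against V-K562, and 40.5% and 38.1% in G-K562 against B-K562. Of 10 lymphoid markers the sums ran from 610 to 760 in V-K562, from 260 to 277 in B-K562 and from 303 to 402 in G-K562, with MS4A1 at 0. Of 6 tested, 5 were lower in B-K562 and 4 lower and 1 higher in G-K562 than V-K562 (CD3D -1.45 and -1.41), with 1 lower and 2 higher between G-K562 and B-K562. CD3G, CD79B and CD7 are in these counts but reached 10 only in V-K562 libraries. They were admitted through that line, so their part in the counts supports nothing. Of 4 endothelial markers tested, 2 were lower in B-K562, and 1 was lower and 2 higher in G-K562 (FLT1 -2.09 and -1.70), and of 5 in G-K562 against B-K562 1 was lower and 3 higher. ERG, among the higher in both G-K562 comparisons, reached 10 only in G-K562 libraries. TEK, the 1 lower against B-K562, was below 10 in each G-K562 library. Both were admitted through the lines where they are high and support nothing. Of 8 fibroblast markers the sums ran from 1595 to 1930, from 919 to 1866 and from 1294 to 1412, and none was at 0 in all libraries of a line. Of 5 tested, 3 were lower in B-K562, 3 lower and 1 higher in G-K562, and 1 lower and 1 higher between them. The 1 lower, DCN, was below 10 in each G-K562 library and was admitted through the other lines.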

How the data were processed

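RNA-seq and ATAC-seq were done on 3 biological replicates of each K562 line, 18 libraries in all. The authors prepared stranded mRNA libraries, mapped paired reads to GRCh38 with STAR (RNA-seq) or BWA-MEM (ATAC-seq), removed duplicates, assigned RNA reads to RefSeq genes with Subread and normalized with DESeq2. The strand setting of the counting is not given in the sources used here. The deposited RNA values are a signal, whole numbers that are gene counts divided by size factors, with one table for B-K562 and V-K562 and one for G-K562 and V-K562, each normalized on its own. Fold-change and p-value columns of the authors were not used. ATAC-seq cells were treated with DNase before harvest, libraries were sampled down to equal tags, and peaks were called per library with MACS2 at p 1e-07. The deposited peak lists give summit coverage (pileup in tags).

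The 9 genes and the gene lists were chosen with earlier results of these data known. RNA was tested with limma 3.58.1 (R 4.3.3) with a trend on log2(value + 1), for genes of at least 10 in at least 3 libraries, with Benjamini-Hochberg adjustment over all genes tested. For G-K562 against B-K562 the 9 libraries were fitted together, with B-K562 values multiplied by 1.02, the mean ratio of the shared V-K562 columns. Peaks of the 9 libraries (457967 intervals) were merged into 85549 regions, scaled by a trimmed mean over shared regions, set to 17 tags where absent or lower, kept with a peak in at least 3 libraries, and tested in the same way. A call needs an adjusted p of at most 0.05 and, where stated, a 2-fold change. Named genes are the 9, BASP1, per list the 3 largest rises and falls among 2-fold calls with a mean of at least 100, and for each tested gene of the 9 the 2 genes most correlated with it, and some of these are not reported here. The fits were tested on simulated data in which few features changed and no peak was absent. That simulation therefore did not test the 17-tag setting, the scaling or data with so many changes. Alternatives were another pseudocount, filter, floor, scaling, fit or distance, mean pileup, a replicate block, and each library left out with the tested genes and regions held.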

Additional observations from a re-analysis of the deposited data

How the results depend on the processing

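ITGA2B, THBS1 and ITGB3 kept direction and significance in the comparisons where they were called, under every alternative run for them. Differences not called moved around 0, with ITGB3 in G-K562 against V-K562 at -0.11 without V-K562 replicate 1 and -0.02 without G-K562 replicate 1 (at most 0.11 with any library left out), and PPBP there at -0.12 without V-K562 replicate 2 (at most 0.48). The number of the 9 genes called at 2-fold, 1 in B-K562 against V-K562, was 3 at adjusted p alone, 3 with no filter on low values and 2 in a fit of 9 libraries. In G-K562 against B-K562 it was 2, and 4 at adjusted p alone, 1 with a pseudocount of 10, 1 where every library needed at least 10, and between 1 and 2 with a library left out (1 without G-K562 replicate 3, where ITGA2B was at -0.92). The number of regions called, 1 in B-K562 against V-K562, was 4 at adjusted p alone, 2 with a floor of 10 tags, 0 where every library needed a peak, and 1 to 2 with a library left out (2 without V-K562 replicate 1). In G-K562 against V-K562 it was 1, and 11 at adjusted p alone, 2 with no scaling, 3 with a floor of 10 tags, 0 where every library needed a peak, and 1 to 3 with a library left out (3 without V-K562 replicate 3, 2 without G-K562 replicate 1 or 2). In G-K562 against B-K562 it was 3, and 12 at adjusted p alone, 5 with no scaling, 0 where every library needed a peak, and 1 to 4 with a library left out (1 without B-K562 replicate 1 or G-K562 replicate 3). The peak filter removes by construction the regions that a line lacks. The cause of the other shifts was not tested.

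Replicate numbers are shared by the lines in the labels, but same-numbered libraries deviated together weakly, with correlations of -0.15 to 0.26 in RNA-seq and 0.01 to 0.12 in ATAC-seq, so they were not treated as pairs. With the replicate number as a block the genes called were 1, 1 and 2 and the regions called 1, 1 and 2. Normalized values hide the depth of each RNA library, and peaks under about 17 tags cannot be compared.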
